A study of Homo sapiens with 2 samples.

Results

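The RAS GTPases, the proteins that switch them off and the RAF and MEK kinases below them were followed in RNA recovered with the RNA-binding protein QKI. The list held 7 genes, HRAS, NRAS, RASA1, NF1, BRAF, ARAF and MAP2K1. A probe set was taken as a member if the platform annotation gave it exactly 1 of these symbols. That rule found 4 of the 7 genes, HRAS, NF1, ARAF and MAP2K1, with 31 probe sets in all, among 18132 genes measured. NRAS, RASA1 and BRAF were not analysed here. The rule used no signal, so the values of the members were not fixed by it, but the list was chosen with earlier results of these data known.

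SW480, a cell line from a human colorectal adenocarcinoma, was transfected with siRNA against the long noncoding RNA NONHSAT136151 (siLnc) or with negative control siRNA (siNC). Both groups received 100 pmol of siRNA with a lipid reagent and were collected after 48 h. RNA was then precipitated from the lysates with an anti-QKI antibody and hybridised to PrimeView arrays, whose probe sets are groups of short probes against a transcript. There was 1 siLnc array and 1 siNC array, so no difference below has a replicate check, no test could be made, and each value describes these 2 arrays. QKI is a protein of the STAR family that binds mRNAs and affects their splicing and stability. The study asked whether silencing the lncRNA altered which mRNAs come down with QKI. IgG precipitates and input RNA were not analysed here, so more mRNA in the cells and more of it bound to QKI cannot be told apart.

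The treatment itself is defined by short designed sequences. They are shown because every difference below is read between cells given siRNA against the lncRNA and cells given the control. The list of siRNAs published with the study gives these entries, written 5′ to 3′, with a 3′ overhang in capitals where the list spells one out.
si-NON-1: uaggcaugguuagcguggucggaauTT
si-NC: ttcttacacaatagccagg
A further entry against the lncRNA, si-NON-2, is letter for letter the same as si-NC there. The labels do not say which entry was given to the siLnc cells on the array. Knockdown of NONHSAT136151 was not checked here, since no probe set carries its name.

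In cells, RAS proteins are membrane-bound switches that are active with GTP and inactive with GDP. Exchange factors load them with GTP, and GTPase-activating proteins make them hydrolyse it. Active RAS recruits RAF kinases, which phosphorylate MEK, and MEK phosphorylates ERK, a kinase that drives proliferation. The cascade is among the most often activated pathways of colorectal cancer.

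Whole-array values set the scale for the members. Signals of 72 probe sets of 27 genes of cell types foreign to the culture (liver, muscle, neuron and others) were used to gauge background, and 95% of them lay below a log2 signal of 3.91 in siLnc and 4.23 in siNC. A probe set at or below these values is called below background here. Of the genes listed for colorectal epithelial cells, the keratins KRT8, KRT18 and KRT19, EPCAM, CDX2 and ASCL2 lay above background on both arrays. CDX1, VIL1, CEACAM5 and LGR5 of the same list lay below it. The keratins differed by 0.03 to 0.10 on the log2 scale, but the intestinal transcription factors were lower in siLnc, CDX2 at 6.22 in siLnc and 7.17 in siNC and ASCL2 at 6.71 in siLnc and 7.63 in siNC. Of 20 measured genes of secretory glands and blood, listed as foreign to the culture, 12 were at least 2-fold higher in siLnc, against 0.651% of all genes. This list was drawn up with earlier results of these data known, so the count describes the list and is not a test. The summed linear signal of the 20 was 2415 in siLnc and 227 in siNC. In 3 of the 20 the brightest probe set lay above background on both arrays, siNC included. The part of either marker list in the values of the members was not tested. None of 8 fibroblast and endothelial and 4 measured leukocyte genes lay above background on both arrays. The hybridization controls were lower in siLnc in 18 of 18 probe sets, by log2 differences, siLnc minus siNC, from -1.3 to -0.2. QKI mRNA itself had differences of -1.26 to 0.00 in its 6 probe sets. How far either bears on the members was not tested.

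No member differed 2-fold between the precipitates. As means over probe sets, 0 of 4 genes were at least 2-fold higher in siLnc and 0 of 4 at least 2-fold lower, against 0.651% and 0.121% of all 18132 genes. By probe set the counts were 0 of 31 in each direction, against 1.51% higher and 0.185% lower of all 49292. Counts of 0 among so few are not set apart from these shares. The log2 differences, siLnc minus siNC, were 0.11 for MAP2K1, 0.05 for HRAS, -0.03 for NF1 and -0.19 for ARAF. Their median was 0.01, beside -0.06 over all genes, dim ones included. From probe sets above background on both arrays alone, the median was 0.07 for the members and 0.07 over all genes. The robust SD of the difference over all genes was 0.26, and every gap between neighbours in this order was smaller than that. The gap between the ends of the order, ARAF minus MAP2K1, was -0.31. From probe sets above background on both arrays alone, the gaps to ARAF were wider than 0.26. HRAS minus ARAF was then 0.36, NF1 minus ARAF 0.40 and ARAF minus MAP2K1 -0.43. The robust SD over genes is not given for that set, and no gap was tested. Of the 31 probe sets 14 lay above 0, 4 at 0 and 13 below, and they ranged from -0.52 to 0.31.

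**Figure D1:**
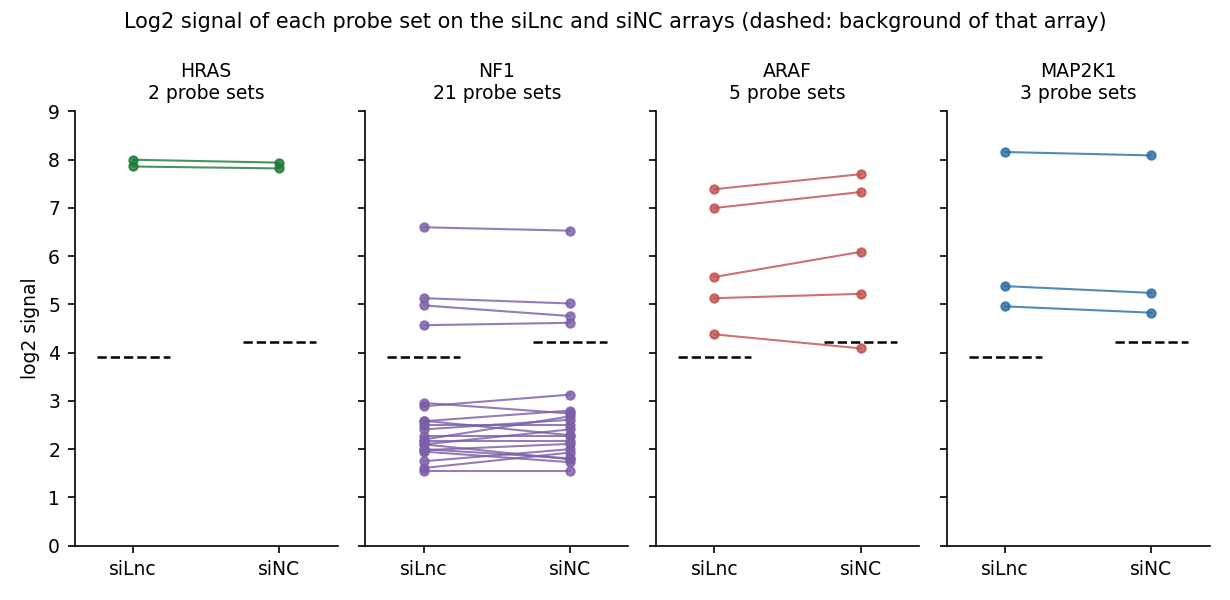
Log2 signal (vertical axis) of each probe set of HRAS, NF1, ARAF and MAP2K1 on the siLnc and siNC arrays, with a line joining the points of 1 probe set and dashed bars at the background of each array, 3.91 in siLnc and 4.23 in siNC. Lines run close to level for HRAS and MAP2K1, 4 of 5 slope up towards siNC for ARAF, and 17 of 21 NF1 probe sets lie below the dashed bars.

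HRAS, the RAS GTPase measured here, was recovered at nearly the same level in both precipitates. Its first probe set (11744709_a_at) read a log2 signal of 8.0 in siLnc and 7.94 in siNC. The second (11733320_a_at) read 7.86 in siLnc and 7.82 in siNC. Both lay well above background and gave nearly the same small difference, 0.06 and 0.04. As a mean the difference was 0.05 ± 0.01 (SD over n = 2 probe sets, not over replicates), or 1.04-fold. Probe sets of like signal had a median difference of 0.13 and a robust SD of 0.34, which is the spread of all mRNAs at that signal, real changes included. HRAS therefore lay inside that spread, slightly under its median, and of all genes 86.4% differed by more in either direction. Its sign turned with the scaling of the arrays, being -0.09 after cyclic loess or quantile normalization and 0.08 after median centring. The table of RefSeq genes lists 0 pseudogenes under a symbol of HRAS.

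NF1 encodes neurofibromin, a large GTPase-activating protein that turns RAS off and is lost in neurofibromatosis. It was read by 21 probe sets, more than the other 3 genes together, and most of them read no more than background. Above background on both arrays were 4. The brightest (11739226_s_at) read 6.60 in siLnc and 6.53 in siNC. The next (11758642_s_at) read 5.13 in siLnc and 5.02 in siNC. Another (11741949_a_at) read 4.98 in siLnc and 4.76 in siNC, and the dimmest (11739225_a_at) 4.57 in siLnc and 4.62 in siNC. These 4 differed by -0.05 to 0.22, with a mean of 0.09 ± 0.11 (SD over n = 4 probe sets), so they disagreed in sign and each lay within 1 robust SD of probe sets of like signal.

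The other 17 NF1 probe sets lay below background on both arrays, at 1.55 to 2.96 in siLnc and 1.55 to 3.13 in siNC. Their differences ran from -0.48 to 0.31, with 8 below 0, 5 above and 4 at 0, and a mean of -0.05 ± 0.24 (SD over n = 17). No direction is read from these. The widest of them, -0.48 in probe set 11731351_at (2.20 in siLnc and 2.68 in siNC), was larger than that of any NF1 probe set above background. The mean over all 21 was -0.03, and it stood at 0.09 without the dim probe sets. RefSeq lists 12 pseudogenes named after NF1, and 3 of the probe sets carry the suffix _s and 5 the suffix _x, which Affymetrix gives to probe sets that may also read related sequences. The 4 above background include 2 of these. Signal from copies and from NF1 itself cannot be told apart there.

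**Figure D2:**
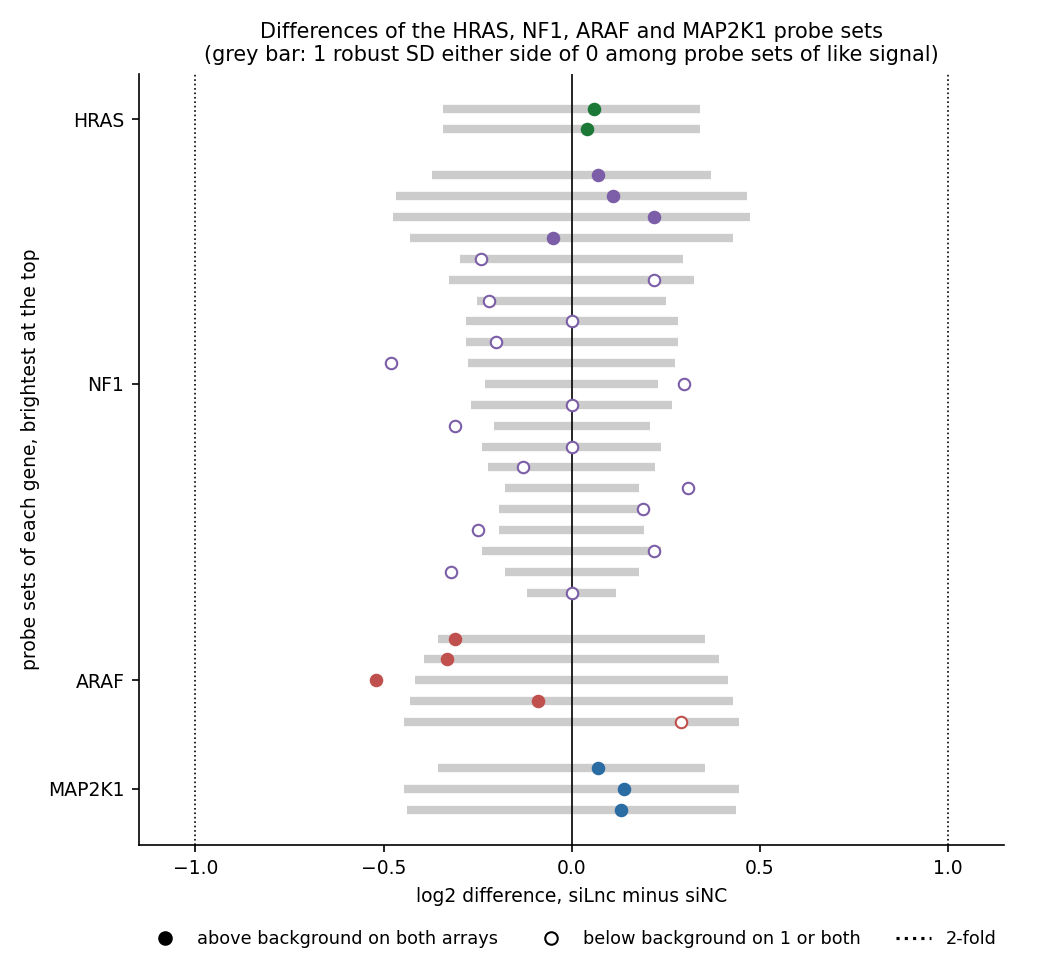
Log2 difference, siLnc minus siNC, of the 31 probe sets (horizontal axis), grouped by gene with the brightest at the top of each group, over grey bars of 1 robust SD either side of 0 among the 500 probe sets nearest in signal. Filled points lie above background on both arrays, and among these only 1 ARAF probe set, at -0.52, leaves its bar.

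ARAF, the RAF kinase measured here and the one with the weakest kinase activity of its family, had the lowest difference of the 4 genes. Probe set 11728747_s_at read 7.39 in siLnc and 7.70 in siNC. Probe set 11728748_x_at read 7.0 in siLnc and 7.33 in siNC. Probe set 11752388_a_at read 5.57 in siLnc and 6.09 in siNC. All of these were lower in the siLnc precipitate, by log2 differences of -0.31, -0.33 and -0.52. Probe set 11756111_a_at read 5.13 in siLnc and 5.22 in siNC, a difference of -0.09. The dimmest, 11763195_at, went the other way with 4.38 in siLnc and 4.09 in siNC, and its siNC value lay below background. The mean over all 5 was -0.19 ± 0.31 (SD over n = 5 probe sets), so the probe sets of ARAF spread more widely than their mean lay from 0.

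Over the 4 ARAF probe sets above background on both arrays, all below 0, the mean was -0.31 ± 0.18 (SD over n = 4). The largest difference, -0.52, amounts to 1.43-fold more in siNC and exceeded the robust SD of 0.42 at its signal. Counted from 0, both brightest probe sets stayed inside theirs, of 0.36 and 0.39. All 3 lay below the middle 68% of probe sets in their signal bin, whose median is above 0. Probe sets of like signal had medians of 0.15 and 0.14, so that ARAF lay on the other side of 0 from most mRNAs of its brightness. Its mean was negative as deposited and in each of 6 alternatives that change the scaling, the filter or the choice of probe set, from -0.32 to -0.16. Not all of these could turn the sign. The filter on dim probe sets kept all 5, and the brightest probe set and the filter at background leave out the 1 above 0. All use the same 2 arrays, so they are no check on the direction. Of all genes, dim ones included, 49.7% differed by more in either direction than the mean of -0.19 over all ARAF probe sets. That mean thus lay near the middle of all genes by size of difference. For the mean above background such a share was not computed. RefSeq lists 3 pseudogenes named after ARAF, and the brightest probe sets are an _s and an _x type, so reading of related sequences was not tested there. The lowest value came from an _a probe set, a type that reads several transcripts of 1 gene.

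**Figure D3:**
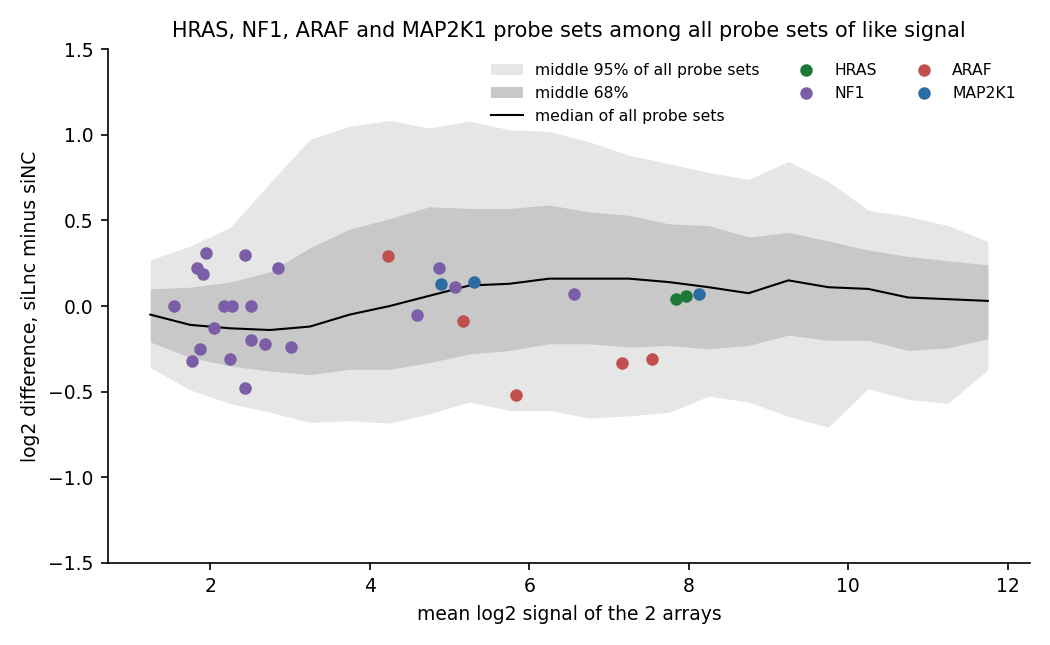
Log2 difference, siLnc minus siNC (vertical axis), against the mean log2 signal of the arrays (horizontal axis) for the 31 probe sets, over the median (line), the middle 68% (dark band) and the middle 95% (light band) of all 49292 probe sets in bins of 0.5. Points of HRAS and MAP2K1 lie near the median line, NF1 probe sets crowd at low signal, and 3 of the 5 ARAF points lie below the dark band.

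MAP2K1 encodes MEK1, the kinase that RAF activates and that phosphorylates ERK. Its 3 probe sets lay above background on both arrays and a little higher in siLnc. The brightest (11757478_s_at) read 8.16 in siLnc and 8.09 in siNC. Probe set 11749555_a_at read 5.38 in siLnc and 5.24 in siNC, and 11717291_a_at read 4.96 in siLnc and 4.83 in siNC. The differences of 0.07, 0.14 and 0.13 had a mean of 0.11 ± 0.04 (SD over n = 3 probe sets), or 1.08-fold. They lay inside the robust SDs of 0.36, 0.44 and 0.44 of like probe sets and close to the medians of these, 0.13, 0.15 and 0.11. After cyclic loess the mean was 0.02 and after quantile normalization -0.02, so that no direction is read from it. RefSeq lists 1 pseudogene named after MAP2K1, and the brightest probe set is an _s type, so reading of related sequences was not tested there.

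The rest of the route from RAS to ERK was taken from a list of 58 other genes, of which 52 were measured and 6 were not analysed here. Of the 52, 0 were at least 2-fold higher in siLnc and 0 at least 2-fold lower, 25 lay above 0 and 27 below, and the median was -0.005. From probe sets above background on both arrays alone, 35 of these genes remained, 19 above 0 and 16 below, with a median of 0.08. By probe set, 1 of 141 was at least 2-fold higher and 0 lower. The genes ran from -0.45 to 0.70. Thus the values of the 4 members lay well within those of the pathway around them.

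Among the kinases beside the members, MAP2K2, which encodes MEK2, read 7.44 in siLnc and 7.83 in siNC, a difference of -0.39. MAPK3, which encodes the kinase ERK1, read 6.10 in siLnc and 6.20 in siNC, a difference of -0.10. Each is read by 1 probe set of the _x type. MEK1 and MEK2 mRNAs thus had differences of opposite sign as deposited, 0.11 and -0.39, and the gap was not tested. After quantile normalization both lay below 0, at -0.02 for MAP2K1 and -0.53 for MAP2K2, so the contrast of signs is not fixed.

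Among 8 measured RAS-related GTPases the median was -0.03, with 3 above 0 and 5 below. RALB, a GTPase that acts below RAS, had 0.45 as the mean of probe sets at 0.20 and 0.70, the brighter of them being the one at 0.20. RAP1B, a GTPase of cell adhesion, had 0.26, with 0.07 in its brightest probe set. MRAS, a GTPase close to the RAS proteins in sequence, lay as far below 0, at -0.26, and its brightest probe set read 4.65 in siLnc and 5.16 in siNC. For the 10 adaptors and exchange factors the median was 0.02. GRB2, the adaptor that brings the exchange factor SOS to receptors, read 9.02 in siLnc and 8.98 in siNC in one probe set and 7.09 in siLnc and 6.40 in siNC in the other. RASGRF1, an exchange factor best known from neurons, had -0.45, with all probe sets below background.

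The 5 other GTPase-activating proteins measured had a median of 0.02, but 1 of the 5 had its brightest probe set above background on both arrays. That gene was RASA3, at 7.06 in siLnc and 6.75 in siNC in this probe set and at 0.02 as the mean of 5. The widest differences of the group, 0.43 in RASA2 and -0.38 in RASAL3, came from probe sets below background. Enzymes and carriers that attach lipids to RAS or move it between membranes had a median of 0.02 over 8 genes. PDE6D, a carrier of farnesylated RAS, read 6.28 in siLnc and 6.78 in siNC in its brighter probe set, and 6.15 in siLnc and 6.35 in siNC in the other. LYPLA1, a thioesterase that removes palmitate, had 0.37 as a mean but -0.05 in its brightest probe set.

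Scaffolds and modulators had the highest median of these role groups, 0.20 over 11 genes, of which 7 lay above 0. The median itself is the value of KSR2, a scaffold gene below background at 3.11 in siLnc and 2.91 in siNC, so no direction is read from it. In 5 of the 11 the brightest probe set lay above background on both arrays. Among these, RAP1GDS1, IQGAP1, SHOC2 and PEBP1 lay above 0 as means over probe sets, and LAMTOR3 lay below, at -0.285. SHOC2 had 0.44 and PEBP1 0.31. A direction of the group was not tested. RAP1GDS1, a chaperone of prenylated small GTPases, had the largest mean difference of the pathway, 0.70. Its probe sets read 6.55 in siLnc and 5.73 in siNC, 5.19 in siLnc and 5.06 in siNC, and 5.66 in siLnc and 4.50 in siNC. The last of these, at 1.16, was the pathway probe set past 2-fold, while the middle one differed by 0.13. IQGAP1, a scaffold that binds RAF, MEK and ERK, was higher in siLnc in each of 4 probe sets, by 0.43 to 0.50, and only the brightest (6.12 in siLnc and 5.67 in siNC) lay above background.

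The kinases and factors that ERK phosphorylates had a median of -0.02 over 8 genes. RPS6KA3, a ribosomal S6 kinase that ERK activates, read 6.91 in siLnc and 6.01 in siNC in its brighter probe set, a difference of 0.90. Its dimmer probe set, below background, differed by 0.31. Its relatives RPS6KA1 and RPS6KA2 differed in sign. RPS6KA1 had a mean of 0.22, with 5.67 in siLnc and 5.22 in siNC in its brightest probe set. RPS6KA2 had a mean of -0.23, and of its 4 probe sets 1 lay above background on both arrays, at 4.67 in siLnc and 5.01 in siNC. In the parallel JNK and p38 cascades, 8 measured kinases had a median of 0.16 and 0 reached 2-fold in either direction. MAP3K1, a kinase at the top of the JNK cascade, read 8.29 in siLnc and 7.73 in siNC in its brighter probe set. The difference between this cascade and the RAS to ERK genes was not tested.

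**Figure D4:**
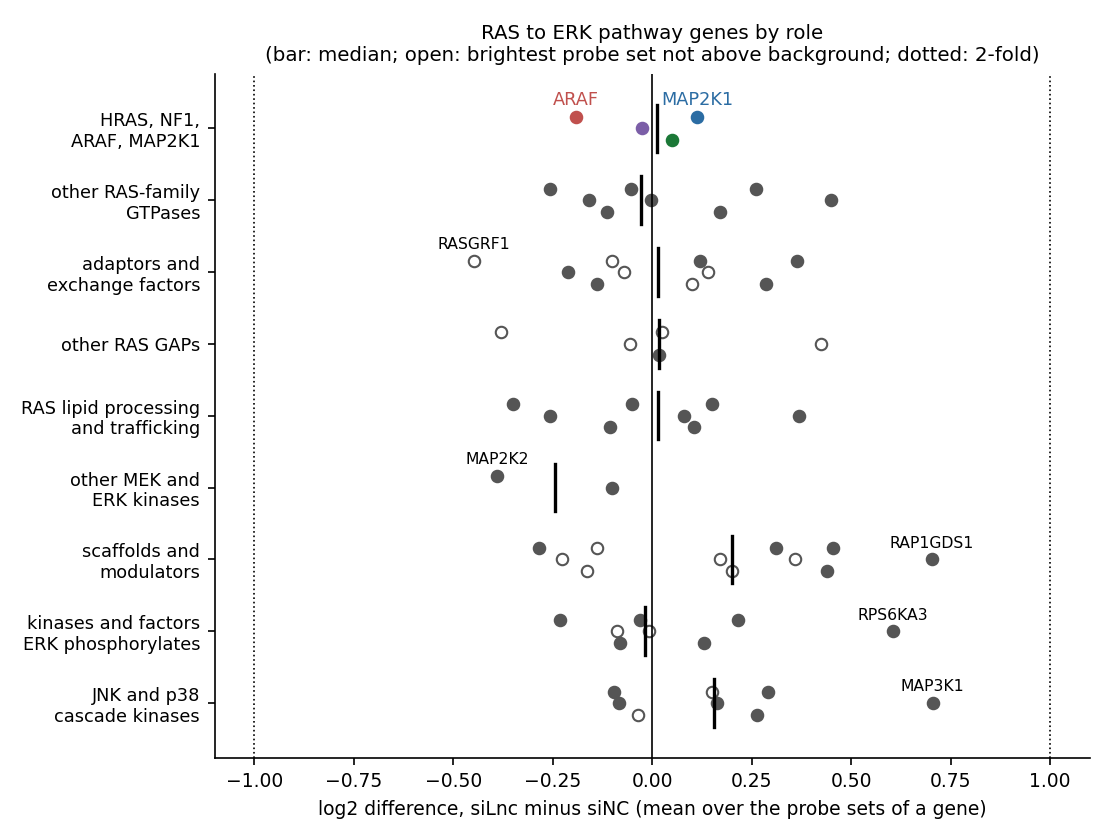
Log2 difference, siLnc minus siNC, as the mean over the probe sets of each gene (horizontal axis), by role in the pathway (vertical axis), with a bar at the median of each role and dotted lines at 2-fold. Filled points are genes whose brightest probe set lay above background on both arrays. The coloured points at the top are ARAF, NF1, HRAS and MAP2K1 from left to right, between -0.19 and 0.11, and no gene of any role reaches the dotted lines.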

How the data were processed

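The table that the authors deposited holds a log2 signal for every probe set on either array. A company ran the arrays. GCOS is the software named in the submitters' processing notes. For background correction, summarisation and scaling, the method is not given in sources used here, so a shift common to all mRNAs may have been removed. The log2 scale was taken from the range of the values. Of 49371 probe sets, 79 controls were left out, 44988 had 1 gene symbol, 1832 had several and 2472 were unnamed here. All 31 member probe sets matched their symbol by gene identifier in RefSeq. Coordinates were left out, as the sources name no genome build.

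The siNC signal was subtracted from that of siLnc, and probe sets of a gene were averaged. Robust SDs are 1.4826 times the median absolute deviation, for like signal over the 500 nearest probe sets. The threshold was a log2 difference of 1. The members, lists and alternatives were chosen with earlier results of these data known. Named besides the members were the 2 widest differences of each role group and any pathway gene at 2-fold. Chosen after their values were seen were MRAS, RASA3, KSR2, SHOC2, PEBP1, LAMTOR3, RPS6KA1 and MAP3K1. Counting was tested on simulated data with planted changes well past the threshold and the same noise at every signal. That does not test differences as small as those of the members. Alternatives used limma 3.58.1 in R 4.3.3, and other steps Python 3.11.15 with numpy 2.4.6 and pandas 2.3.3.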

Additional observations from a re-analysis of the deposited data

How the results depend on the processing

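The count of member genes at least 2-fold different was 0 in each direction as deposited and under these alternatives: cyclic loess, quantile normalization and median centring of the arrays, a filter on dim probe sets, the brightest probe set of a gene, thresholds of 1.5-fold and 3-fold, and a filter at background that was added after the data were seen. The count of member probe sets was 0 in each direction under the same alternatives, except the brightest probe set of a gene, for which it was not counted. At 3-fold the counts of 0 follow from those at 2-fold and add nothing. Every recomputed mean of the 4 genes and both list medians stayed within 0.26, the robust SD over genes, of its deposited value. That limit is wider than any of these deposited values is from 0, so staying within it does not fix a sign. ARAF ran from -0.32 to -0.16, and not all of these alternatives could turn its sign. The signs of the other means were not fixed, with HRAS from -0.09 to 0.08, MAP2K1 from -0.02 to 0.14, and NF1 from 0.00 to 0.09 against -0.03 as deposited. The median of the 4 genes ran from -0.05 to 0.07 and that of the other pathway genes from 0.00 to 0.09. Over all genes the counts of 2-fold higher and lower in siLnc, 118 and 22 as deposited, were 85 and 33 after cyclic loess, 68 and 35 after quantile normalization, 140 and 22 after median centring, 185 and 34 with the filter on dim probe sets, 200 and 49 by the brightest probe set, and 110 and 25 above background on both arrays. No paired analysis was possible because each group had 1 array, and for the same reason no array could be left out. With 1 array per group no error between samples can be given, and below background no direction is read.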
